A study of Drosophila melanogaster with 2 samples.

Results

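Peaks of the CG32121-eGFP fusion protein were examined at 9 heat shock genes of Drosophila melanogaster. Of these, Hsp27, Hsp26, Hsp22, Hsp23, Hsp67Bc and Hsp67Ba are the small heat shock protein genes of the 67B cluster. The others were the chaperone genes Hsp83 and Hsc70-4, and Hsf, the gene of the heat shock factor. The term heat shock genes is used below for all 9, also for the constitutive Hsc70-4 and for Hsf. A gene was counted as having a peak when a summit of the authors' conservative list lay in its body or within 1 kb upstream of it (Ensembl annotation of the release 6 genome, dm6 coordinates). By this rule 7 of the 9 genes had a peak, against 4016 of all 13945 protein-coding genes (28.8%). The 7 genes shared 10 distinct peaks of the 7676 in the list.

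Whole pupae of 2 days carried a transgene for CG32121 fused to eGFP (strain CG32121-GFP), and chromatin fragmented by sonication was precipitated with an antibody against GFP. All samples form 1 group of 2 biological replicates, numbered 1 and 2, and the labels describe no heat treatment. The sources used here do not give the promoter that drives the transgene. The control that the labels name as possible was not analysed here. Signal that would arise without the fusion protein was therefore not measured, and no test between groups was made.

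Heat shock proteins are chaperones that hold or refold damaged proteins. Hsf, the heat shock factor, gathers into trimers under stress and binds heat shock elements, arrays of inverted GAA units upstream of its target genes. At several heat shock genes the GAGA factor keeps the promoter open and RNA polymerase II waits paused just downstream of the transcription start site (TSS). The small heat shock genes of 67B are also expressed without heat during fly development, and ecdysone, the steroid of metamorphosis, acts on several of them.

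The sequences under and beside the summits are given first, because the strongest summit and the heat shock elements did not lie in the same place. They are from the RefSeq genome of release 6 (dm6), 5' to 3' on the strand of the gene. Capitals mark heat shock elements of 2 units (GAANNTTC or TTCNNGAA) and the GAGA element GAGAG on either strand (CTCTC in reverse). Overlapping matches were all counted. Only exact matches were searched, here and below, so units with a mismatch were missed and a longer array can be counted as 2 units. The first is the stretch directly upstream of the Hsp27 TSS (chr3L:9383763-9384062, plus strand, 300 bases), with the summit at base 140 of the run. It held no heat shock element and 1 GAGA element.
Hsp27: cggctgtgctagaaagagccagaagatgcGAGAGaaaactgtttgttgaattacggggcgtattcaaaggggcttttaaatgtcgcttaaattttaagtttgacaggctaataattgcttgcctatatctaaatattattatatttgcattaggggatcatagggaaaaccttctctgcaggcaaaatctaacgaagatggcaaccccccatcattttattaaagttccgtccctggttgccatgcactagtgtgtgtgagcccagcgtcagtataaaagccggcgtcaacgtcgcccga
The 120 bases before it (chr3L:9383643-9383762, plus strand) held the nearest heat shock element of Hsp27 and 2 overlapping GAGA elements.
Hsp27 further upstream: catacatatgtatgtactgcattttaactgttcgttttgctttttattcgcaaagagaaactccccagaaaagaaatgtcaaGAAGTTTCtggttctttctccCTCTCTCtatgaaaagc
At Hsp26 the 300 bases upstream of the TSS (chr3L:9377428-9377727, minus strand) held 3 heat shock elements and 9 GAGA elements, with the summit at base 158.
Hsp26: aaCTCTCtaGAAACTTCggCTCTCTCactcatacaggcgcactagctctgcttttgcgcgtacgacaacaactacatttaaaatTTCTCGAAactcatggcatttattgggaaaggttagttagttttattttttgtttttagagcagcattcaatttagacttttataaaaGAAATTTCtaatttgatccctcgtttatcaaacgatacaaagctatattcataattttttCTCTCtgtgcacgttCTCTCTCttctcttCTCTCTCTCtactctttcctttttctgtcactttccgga
At Hsp23 the same stretch (chr3L:9381582-9381881, plus strand) held 2 heat shock elements and 1 GAGA element, with the summit at base 205.
Hsp23: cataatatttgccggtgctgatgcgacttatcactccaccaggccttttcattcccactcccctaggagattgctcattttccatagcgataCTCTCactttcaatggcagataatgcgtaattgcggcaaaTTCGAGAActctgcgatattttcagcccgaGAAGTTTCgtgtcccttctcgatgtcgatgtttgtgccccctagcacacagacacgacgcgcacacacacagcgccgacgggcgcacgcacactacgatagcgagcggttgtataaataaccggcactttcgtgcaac
Hsp67Ba, which had no peak, is shown for contrast with its 200 bases upstream (chr3L:9379535-9379734, minus strand), where neither element occurred.
Hsp67Ba: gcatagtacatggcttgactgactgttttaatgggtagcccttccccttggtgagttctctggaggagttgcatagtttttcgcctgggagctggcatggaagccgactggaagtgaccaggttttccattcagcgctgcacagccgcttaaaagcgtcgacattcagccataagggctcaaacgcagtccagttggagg

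Outside the cluster, the 200 bases upstream of Hsc70-4 (chr3R:15242487-15242686, plus strand) held 1 heat shock element, with the summit at base 62.
Hsc70-4: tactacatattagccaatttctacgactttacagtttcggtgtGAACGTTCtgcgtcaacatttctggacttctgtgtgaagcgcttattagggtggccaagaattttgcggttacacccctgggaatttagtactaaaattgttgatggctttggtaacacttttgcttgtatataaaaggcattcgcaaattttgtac
The strongest summit of Hsp83 lay in an intron, and the 201 bases around it (chr3L:3194159-3194359, plus strand, summit at base 101) held neither element.
Hsp83 intron: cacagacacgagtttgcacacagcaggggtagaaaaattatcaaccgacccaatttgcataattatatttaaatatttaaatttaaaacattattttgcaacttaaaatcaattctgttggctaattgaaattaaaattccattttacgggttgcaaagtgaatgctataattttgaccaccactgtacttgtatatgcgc
The element nearest to the other Hsp83 summit (chr3L:3193137-3193166, plus strand) is given with short flanks. So is the only exact match of 3 units within 50 bp of a summit at these genes, in Hsc70-4 (chr3R:15243762-15243791, plus strand). Further units with mismatches beside either were not searched.
Hsp83 element: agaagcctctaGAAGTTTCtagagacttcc
Hsc70-4 element: cgtttttagcaTTCCAGAATTTTCgccttt

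The signal printed below is the authors' deposited value per peak. The sources used here give neither its scale nor the reads behind it, and it served only to describe and rank peaks. Over the whole conservative list its quartiles were 88.5, 122 and 191. The irreproducible discovery rate (IDR) measures how well the ranks of paired peaks match between replicates, with low values for matching ranks. Every conservative peak had a global IDR of at most 0.01, and candidates are ranked peaks above that limit. For a replicate, the signal was read from its own ranked list at the closest summit, up to 200 bp away.

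Within the cluster 5 of the 6 small heat shock genes had a peak and Hsp67Ba had none. The genes are short, between 884 and 4332 bp over all 9. Among the 7864 protein-coding genes of that length range 1765 had a peak (22.4%). A summit within 500 bp of a TSS was present at 6 of the 9 genes, against 2993 of all 13945 genes (21.5%). In replicate 1's own list 5 of the 9 genes had a summit by the same rule, against 19.3% of all genes, and in replicate 2's own list 6 of the 9 had one, against 27.6%.

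Hsp27 (FBgn0001226, chr3L:9384063-9385694, plus strand), whose product is a small heat shock protein of the nucleus, had the strongest peak. The peak spanned 355 bp (chr3L:9383744-9384098) with its summit at -161 bp from the TSS. Its signal was 437.1 in replicate 1, 889.2 in replicate 2 and 1340 in the series list, where it ranked 34 and exceeded 99.6% of all peaks. Among the 4016 genes with a peak Hsp27 ranked 41 by its highest signal. Its IDR of 1e-05 is the lowest value the list can give.

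Hsp26 (FBgn0001225, chr3L:9376418-9377427, minus strand), a small heat shock protein gene of the cytosol, followed within the cluster. Its peak spanned 287 bp (chr3L:9377417-9377703), with the summit at -143 bp from the outer TSS and -195 bp from the inner one. The signal was 159.5 in replicate 1, 297.7 in replicate 2 and 472.5 in the series list, at rank 402. The same summit lay 232 bp beyond the 3' end of Hsp67Ba, and at -590 bp from the TSS of asRNA:CR43481, a noncoding RNA antisense to Hsp67Ba.

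Hsp22 (FBgn0001223, chr3L:9372931-9374964, plus strand), which encodes a mitochondrial small heat shock protein, has 2 annotated TSSs. Its stronger peak spanned 166 bp (chr3L:9373424-9373589), with a signal of 109.2 in replicate 1, 202.6 in replicate 2 and 304.4 in the series list, at rank 881. The summit lay at -512 bp from the inner TSS and at 554 bp from the outer one, inside the 5' UTR of the longer transcript and the 3' UTR of CG4456. CG4456, also recorded as Hsp67Bb, therefore shared it.

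A companion summit at -313 bp from the inner TSS of Hsp22 had a signal of 21.4, above only 4.43% of all peaks, and a q value of 0.738. It was paired with the same replicate peaks as the summit of 304.4, so its low IDR was that of its neighbour. In the whole list 471 peaks (6.14%) shared their replicate peaks with a stronger one, with a median signal of 13.1, and 2 of these lay at the heat shock genes. Leaving such peaks out, 8 distinct peaks remained at the 9 genes, and Hsp22 no longer had a summit within 500 bp of a TSS.

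Hsp67Bc (FBgn0001229, chr3L:9371511-9372497, minus strand), a small heat shock gene whose product works with the BAG-domain protein Starvin in autophagy, met the rule only through the Hsp22 summit of 304.4, at -988 bp from its TSS. Near its own TSS, at -10 bp, stood a candidate with a signal of 12.2 in replicate 1, 28.1 in replicate 2 and 44.6 in the series list, and an IDR of 0.347. In the replicates' own lists the shared summit fell outside 1 kb, and Hsp67Bc was not counted in either.

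Hsp23 (FBgn0001224, chr3L:9381882-9382765, plus strand), a small heat shock gene that responds to ecdysone, had the weakest peak that stood alone in the cluster. Its summit lay at -96 bp from the TSS in a peak of 396 bp (chr3L:9381588-9381983). The signal was 37.0 in replicate 1, 85.4 in replicate 2 and 124.8 in the series list, at rank 3686, close to the median of all peaks. In replicate 1 the nearest summit lay 88 bp from the series summit, toward the TSS, with an IDR of 0.0132. The peak was absent from that replicate's thresholded list. In replicate 2 the nearest summit lay at the same position as in the series list.

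Hsp67Ba (FBgn0001227, chr3L:9377802-9379534, minus strand) had no peak in any of the thresholded lists. It held 5 candidates, the highest at -36 bp from the TSS with a signal of 21.0 in replicate 1, 41.5 in replicate 2 and 59.4 in the series list. The IDR of this candidate was 0.0314 in the series list, 0.0183 in replicate 1 and 0.498 in replicate 2. The gene thus missed the threshold with a signal under the lower quartile of all conservative peaks, and absence of binding there is not shown.

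**Figure D1:**
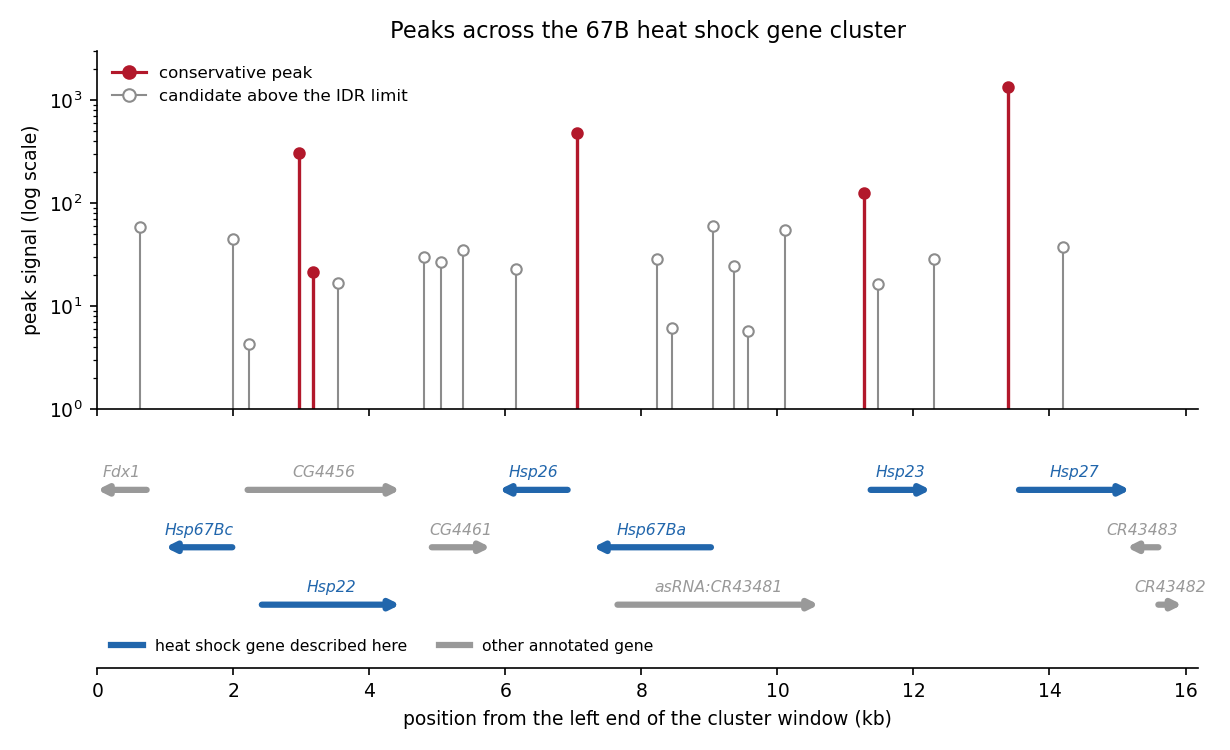
Signal of every ranked peak across the 67B cluster (vertical axis, log scale) by position in kb from the left end of the window, with annotated genes drawn below as arrows in their direction of transcription. The 5 conservative peaks are filled and the 17 candidates are open, and the peak upstream of Hsp27, at 1340, is the highest.

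The cluster window ran from 1 kb outside the outermost small heat shock gene on each side (chr3L:9370511-9386694) and measured 16184 bp. It held 5 conservative summits in 4 separate regions, which is 3.09 per 10 kb, against 0.629 per 10 kb over the arm 3L and 0.573 over all arms. Of 8269 windows of that length along the arms, 320 (3.87%) held at least as many summits. These windows were not matched to the cluster for gene density. With the companion summit of Hsp22 left out, 4 summits remained in the cluster, and the density and the share of windows were not computed again. Neighbouring summits were 199, 3886, 4216 and 2116 bp apart from left to right, the first distance being that between the Hsp22 summit and its companion. Ranked peaks of any quality numbered 22 in the window, 13.6 per 10 kb against 6.58 over 3L.

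Not every gene of the window had a peak. CG4461, a further gene of the small heat shock family between Hsp22 and Hsp26, had no summit by the rule, nor had Fdx1, a ferredoxin gene at the left edge. The pseudogenes CR43483 and CR43482 beside the 3' end of Hsp27 had none. In the body and upstream stretch of Hsp27 28.2% of all 31-base words occurred elsewhere on the arms. In the peak itself no such word did, nor in any of the other 9 peaks.

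Hsp83 (FBgn0001233, chr3L:3192969-3197059, plus strand), the fly Hsp90 gene, lies on the same arm outside the cluster and had 2 peaks. The stronger spanned 275 bp in an intron (chr3L:3194123-3194397), with its summit at 1043 bp from the nearest TSS. Its signal was 229.8 in replicate 1, 445.8 in replicate 2 and 683.0 in the series list, at rank 172. The other peak spanned 169 bp (chr3L:3193014-3193182), with a summit at -88 bp from the inner TSS, in the 5' UTR of the longer transcript. Its signal was 93.1 in replicate 1, 174.9 in replicate 2 and 269.9 in the series list, at rank 1063. Of the 7 genes with a peak, Hsp83 was thus the only one whose strongest summit lay downstream of all its annotated TSSs.

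Hsc70-4 (FBgn0266599, chr3R:15242687-15246614, plus strand) encodes the constitutive cytosolic Hsp70 cognate, which folds new proteins and uncoats clathrin vesicles, and has 6 annotated TSSs. Its strongest summit lay at -139 bp from the outermost TSS, with a signal of 66.0 in replicate 1, 117.3 in replicate 2 and 190.8 in the series list, at rank 1917. A second peak in an intron (chr3R:15243372-15243767) had its summit at 372 bp from the nearest TSS. The signal there was 42.0 in replicate 1, 60.7 in replicate 2 and 108.2 in the series list, and neither replicate's own thresholded list held it. A companion of that peak at -447 bp from the next TSS had a signal of 18.9 and a q value of 0.759, and shared its replicate peaks.

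Hsf (FBgn0001222, 2R at 18130303 to 18134634, minus strand), the gene of the heat shock factor itself, had no peak in any thresholded list. It held 7 candidates spread over its length and its upstream stretch. The highest 2 had almost equal signals of 45.5, in the coding sequence at 2337 bp from the TSS, and 45.2, in an intron at 280 bp. The first had 24.3 in replicate 1 and 22.5 in replicate 2 with a series IDR of 0.173. The second had 23.5 in replicate 1 and 28.2 in replicate 2 with a series IDR of 0.0532. The nearest conservative summit lay 6225 bp outside the gene, in the 5' UTR of pAbp, the poly(A)-binding protein gene, with a signal of 101.3.

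**Figure D2:**
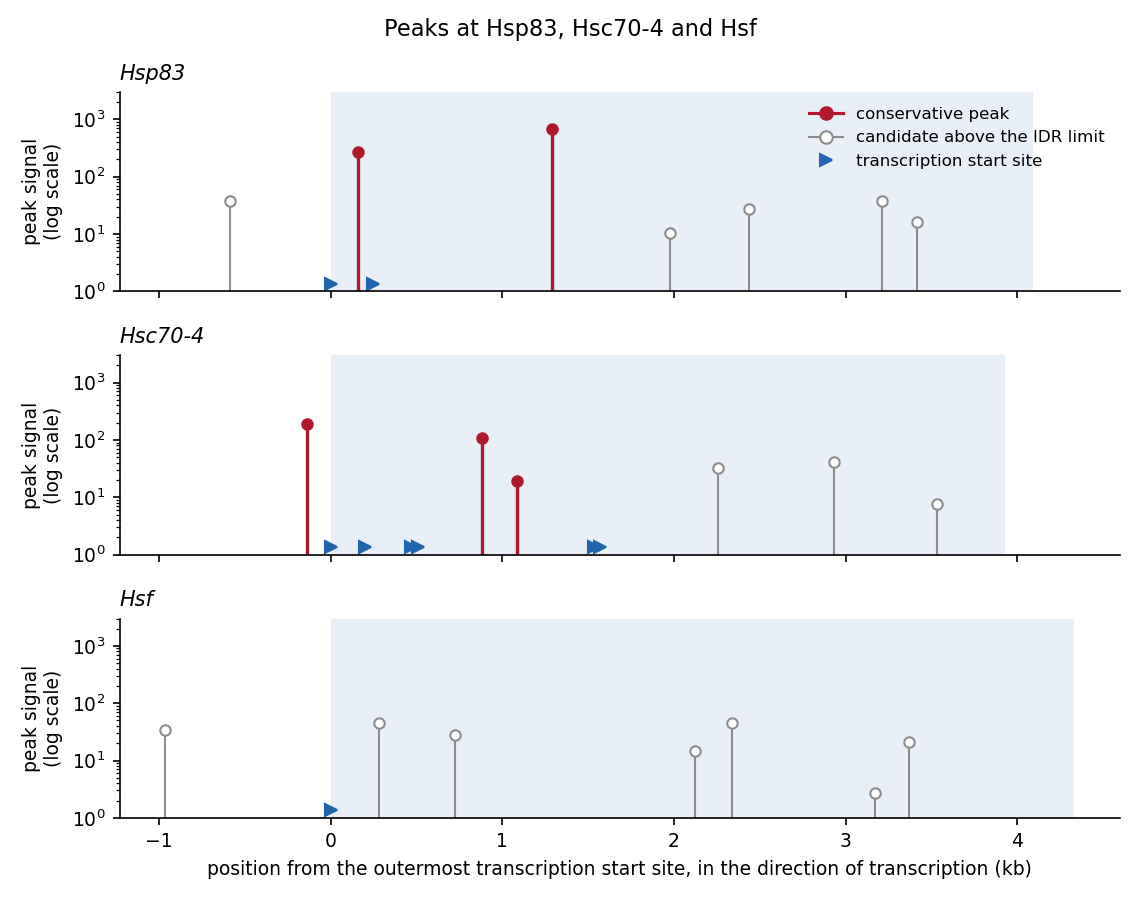
Signal of every ranked peak (vertical axis, log scale) at Hsp83, Hsc70-4 and Hsf by position in kb from the outermost TSS in the direction of transcription, with gene bodies shaded and TSSs drawn as triangles. Hsp83 and Hsc70-4 have filled conservative peaks, up to 683.0 and 190.8, and Hsf has 7 open candidates and no conservative peak.

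By their highest signal the genes ran in the order Hsp27 (1340), Hsp83 (683.0), Hsp26 (472.5), Hsp22 with Hsp67Bc (304.4, the same summit), Hsc70-4 (190.8) and Hsp23 (124.8). Both replicates gave the same order over these genes, from 437.1 to 37.0 in replicate 1 and from 889.2 to 85.4 in replicate 2. At every one of the 8 peaks with replicate peaks of their own the signal was higher in replicate 2, by 1.45 to 2.31 times with a median of 1.88. Over the 7322 conservative peaks matched in both replicates the quartiles of that ratio were 1.41, 1.72 and 2.07. The replicate signals come from separate lists, so their ratio describes the lists and not a change in the animals.

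**Figure D3:**
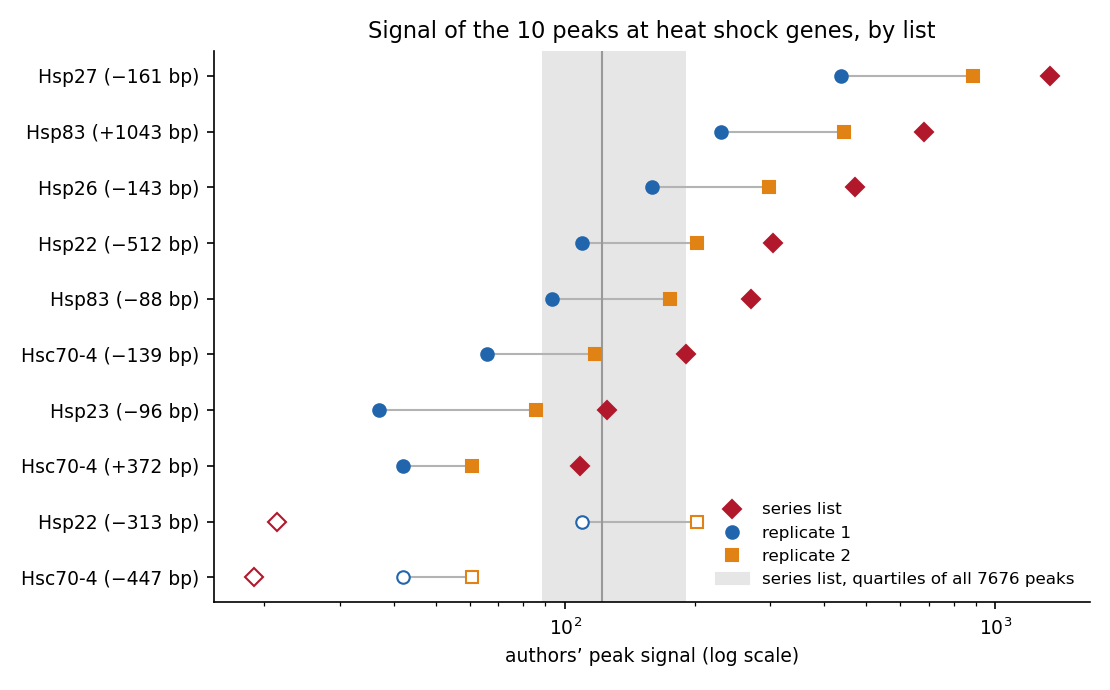
Signal of the 10 peaks at the heat shock genes (horizontal axis, log scale) in the series list, replicate 1 and replicate 2, each peak labelled by its gene and its distance to the nearest TSS. Open symbols mark the 2 peaks that share replicate peaks with a stronger one, and the grey band spans 88.5 to 191, the quartiles of all peaks in the series list. Replicate 2 lies above replicate 1 at every peak.

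Summits at 5 of the heat shock genes lay at similar distances upstream of the nearest annotated TSS. The strongest summit lay at -161 bp for Hsp27, -143 bp for Hsp26, -139 bp for Hsc70-4 and -96 bp for Hsp23. These are positions in the series list, and in replicate 1 the nearest Hsp23 summit lay 88 bp closer to the TSS. The promoter summit of Hsp83 lay at -88 bp from its inner TSS, but at 159 bp from its outer one. All 5 fell between 200 and 80 bp upstream of a TSS, whereas the shared summit of Hsp22 and Hsp67Bc, at -512 and -988 bp, lay farther away. Of the 2896 conservative summits within 500 bp of a protein-coding TSS, 32.0% fell in that interval, with quartiles of -173, -86 and 38 bp. The interval was chosen with these positions known, so the count is a description.

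Heat shock elements of 2 units occurred within 50 bp of 5 of the 10 summits, against 4.78% of all conservative peaks. They lay at Hsp23, Hsp26, the promoter summit of Hsp83, the upstream summit of Hsc70-4 and the companion summit in its intron. Without the 2 companion summits they stood at 4 of 8. Within 100 bp the count was again 5 of 10, against 9.17% of all peaks, and within 200 bp it was 8 of 10, against 16.5%. Elements of 3 units (GAANNTTC followed by NNGAA, or TTCNNGAA followed by NNTTC) occurred within 50 bp of 1 of the 10 summits, against 0.0651% of all peaks. That summit was the Hsc70-4 companion with a signal of 18.9. The genes were chosen as heat shock genes, and 16 of their 17 TSSs had an element within 500 bp upstream irrespective of peaks. The higher shares near summits thus go with the choice of genes, and a link between elements and summits was not tested.

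**Figure D4:**
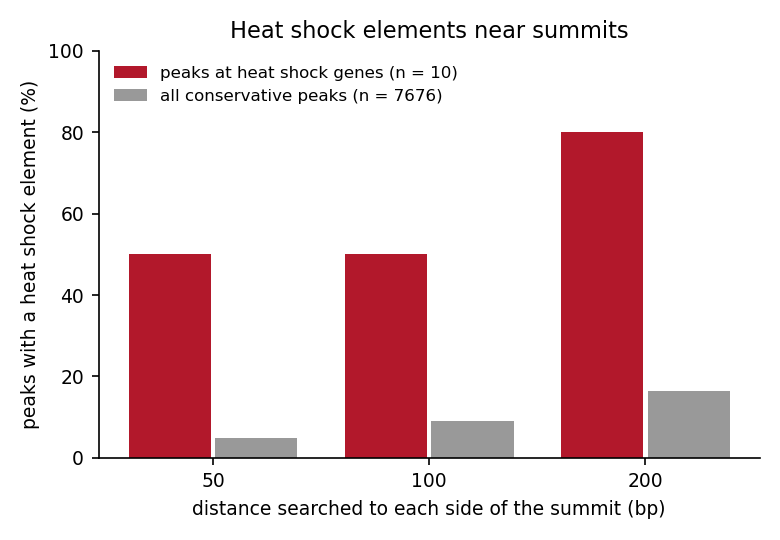
Percentage of peaks with a 2-unit heat shock element (vertical axis) within 50, 100 and 200 bp of the summit (horizontal axis), for the 10 peaks at heat shock genes and for all 7676 conservative peaks. The bars of the heat shock genes stand for 5, 5 and 8 of 10 peaks, and those of all peaks for 4.78%, 9.17% and 16.5%. The genes were chosen as heat shock genes, so the difference goes with that choice.

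The distance from the summit to the nearest element did not follow the order of the signals. Hsp27, at 1340, had no heat shock element within 100 bp of its summit, and the centre of the nearest lay 173.5 bp away, at -338 to -331 bp from the TSS. The intronic Hsp83 summit, at 683.0, had its nearest element 121.5 bp away, and the Hsp22 summit of 304.4 had none within 200 bp. The Hsp26 summit, at 472.5 the third strongest of these genes, had its nearest element centred 18.5 bp away. Among the weaker summits with replicate peaks of their own, that distance was 23.5 bp for the Hsp83 promoter (269.9). It was 14.5 bp for the upstream summit of Hsc70-4 (190.8) and 38.5 bp for Hsp23 (124.8). The weakest of them, the Hsc70-4 summit of 108.2 in an intron, had its nearest element 206.5 bp away. The Hsp23 promoter carried 2 further elements at -405 to -393 bp, which overlap and form a 3-unit element. Distances were read from the series summits, and the Hsp23 summit of replicate 1 lay 88 bp from the series one.

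Upstream stretches were compared in the same way, irrespective of peaks. In the 500 bp upstream of a TSS, 16 of the 17 annotated TSSs of the 9 genes had at least 1 heat shock element, against 24.7% of 19253 TSSs of protein-coding genes. The exception was Hsp67Ba. Hsf itself had 1, at -390 to -383 bp. Elements of 3 units were present at 5 of the 17, against 0.738% of all, namely at Hsp23 and at 4 TSSs of Hsc70-4 whose stretches overlap. At least 3 elements were present at 7 of the 17 TSSs, against 0.618% of all. Stretches of nearby TSSs overlap at Hsp26 and Hsc70-4, so counts over the 17 TSSs, here and below, repeat some elements. At the outermost TSS alone, 2 of the 9 genes had at least 3 elements, against 81 of all 13945 genes. There 1 of the 9 had none, against 10461 of all. Hsp26 had 4 upstream of its outer TSS and 5 upstream of its inner one, Hsp23 had 4, and 4 TSSs of Hsc70-4 had 3 or 4.

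Over all genes the share with a peak was not larger with more elements of 2 units. A conservative summit within 500 bp of the outermost TSS was present at 5 of the 9 heat shock genes and at 2563 of 13945 genes (18.4%). It was present at 10 of the 81 genes with 3 or more elements in the 500 bp upstream (12.3%), among them Hsp23 and Hsp26. It was present at 18 of the 90 genes with a 3-unit element there (20.0%), at 510 of the 2918 genes with 1 element (17.5%) and at 1967 of the 10461 genes with none (18.8%). The signal of the 367 conservative peaks with an element within 50 bp had quartiles of 93.2, 125 and 197, against 88.2, 121 and 190 for the 7309 without. These counts were not tested.

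GAGA elements occurred within 50 bp of 1 of the 10 summits, against 14.6% of all conservative peaks. That summit was the companion at Hsp22, with 6 matches, some of them overlapping. In promoter windows from 250 bp upstream to 50 bp downstream, 8 of the 17 TSSs had a GAGA element, against 33.1% of all. They stood at both TSSs of Hsp22 and of Hsp26, at Hsp23 and at 3 TSSs of Hsc70-4. At Hsp26 the summit lay in the gap between groups of them, 77.0 bp from the nearest, and at Hsp27 the nearest lay 108 bp from the summit.

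The TATA box sequence TATAAA stood in 13 of the 17 promoter windows, against 42.2% of all. Its position was read at 1 TSS per gene, the outermost, or the inner one for Hsp22. There a match was centred between -25.5 and -24.5 bp at Hsp27, Hsp22, Hsp23, Hsp67Bc and Hsc70-4. The windows of both TSSs of Hsp26 and of Hsp83 also held the sequence. At Hsp26 a match was centred at 26.5 bp from the outer TSS, upstream of the inner one. At Hsp83 a match was centred 60.5 bp from the promoter summit, on the side of the inner TSS and upstream of it. Within 50 bp of a summit TATAAA occurred at 1 of 10, Hsp26, against 17.7% of all peaks. The sequence ACAGTG, which led an earlier analysis of all peaks, stood within 50 bp of 0 of the 10 summits, against 6.2% of all.

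**Figure D5:**
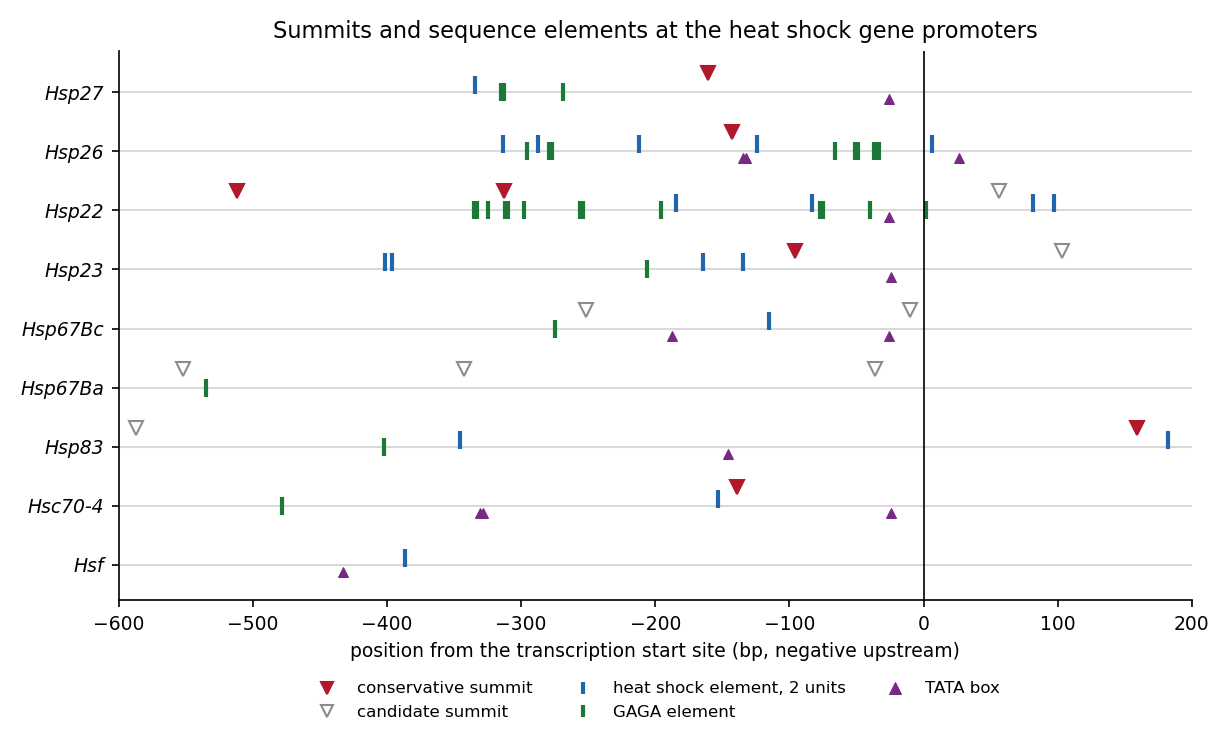
Positions in bp from the TSS (horizontal axis, negative upstream) of summits, heat shock elements of 2 units, GAGA elements and TATA boxes at each of the 9 genes. The outermost TSS is used except for Hsp22, where the inner one is. The conservative summits of Hsp26, Hsp23, Hsc70-4 and Hsp83 lie beside heat shock elements, and that of Hsp27 lies in a stretch without one. The Hsp83 summit and element lie upstream of its inner TSS and are therefore drawn downstream of the outermost one.

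Base composition around the summits also varied between the genes. Within 50 bp the GC content was 20.8% at the stronger Hsp22 summit, 19.8% at the intronic Hsp83 summit, 26.7% at Hsp26 and 31.7% at Hsp27. It was 44.6% and 45.5% at the stronger Hsc70-4 summits, 49.5% at the promoter summit of Hsp83 and 62.4% at Hsp23. Over all conservative peaks the quartiles were 28.7%, 36.6% and 46.5%. Within 50 bp the 4 summits of highest signal at these genes thus had less GC than the 4 weaker ones with replicate peaks of their own. Within 200 bp the values overlapped, with 42.6% at Hsp27 and 38.4% at Hsp26, against 42.4% at the promoter summit of Hsp83 and 35.9% at the upstream summit of Hsc70-4.

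Other chaperone genes were followed in lists written for this comparison. Of 52 symbols 47 were matched to annotated genes, and 17 of these (36.2%) had a summit by the same rule, against 28.8% of all protein-coding genes. In both replicates' own lists 5 of the 9 heat shock genes had a summit (Hsp22, Hsp26, Hsp27, Hsp83 and Hsc70-4). Of the 47 other genes followed, 4 had one in both (CG4456, Hsc70-5, mrj and stv). Of all 13945 protein-coding genes 2514 (18%) had a summit in both.

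In the list of remaining small heat shock genes 2 of 6 had a summit, CG4456 with the shared peak of 304.4 and CG14207 with 99.6. CG4456 was listed there by its recorded name Hsp67Bb, and its protein family was not checked. CG7409, like CG4461, had none. In the Hsp70 and Hsp110 list 2 of 12 had one, Hsc70-5, the mitochondrial Hsp70, with 262.7 and Hsc70-3, the Hsp70 of the endoplasmic reticulum (BiP), with 73.9. The heat-inducible Hsp70 genes, Hsp70Aa and Hsp70Ab among them, had none. Candidates stood at Hsp70Ba, with a signal of 108.4 and an IDR of 0.471, and at Hsp70Aa, with 38.9 and 0.0998. Hsp68 had a summit in replicate 2's own list but not in the conservative list. At the 6 Hsp70 copies, 79.5% to 98.5% of the 31-base words of each occurred elsewhere on the arms. The share was at most 0.102% for 8 of the heat shock genes described and 28.2% for Hsp27. The sources used here do not give how reads that match several places were treated, so the lack of a peak at the Hsp70 copies cannot be read.

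Of the Hsp90 family and its co-chaperones 3 of 9 had a summit. They were Gp93, the Hsp90 of the endoplasmic reticulum, with 121.5, Sgt1 with 67.4 and Cdc37, which brings kinases to Hsp90, with 64.7, and Trap1 and p23 had none. J-domain genes, whose products stimulate Hsp70, had a summit in 5 of 7 cases. The strongest was at mrj, with 5 peaks up to 494.5 over a gene of 18465 bp, followed by Droj2 (101.3) and DnaJ-60 (101.0). Csp and DnaJ-H had none, although Csp had a summit in replicate 2's own list.

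Chaperonin genes, which encode the ring-shaped folding chambers, had a summit in 4 of 12 cases, led by CCT8 (156.4), CCT3 (130.9) and Hsp60A (110.7), and CCT1 and CCT4 had none. The gene stv, which encodes Starvin, the partner of Hsp67Bc named above, had a summit at -570 bp from its TSS with a signal of 162.5 in replicate 1, 247.9 in replicate 2 and 407.4 in the series list. Of the 47 genes mrj and stv thus reached signals between those of Hsp22 and Hsp83, and none reached that of Hsp27.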

How the data were processed

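Anti-GFP ChIP-seq of whole pupae was represented by 8 peak lists that the authors deposited in dm6, of which 7 were used. Per the labels, chromatin was sonicated. No source used here gives the aligner or the peak caller. Per the deposited notes the lists also drew on an input that the notes do not describe. The deposited signal per peak has no stated scale. The deposited −log10 values are those of the q value and the global IDR, and the deposited score column restates the IDR. No column of per-sample values was left unmapped. The depth is unknown.

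Summits were assigned to genes of the Ensembl annotation with python 3.11.15, pandas 2.3.3 and numpy 2.4.6, and the assignment was tested on simulated summits. Motifs were searched as exact matches on both strands of the RefSeq genome of release 6, within 50 bp of summits. No statistical test was run, because there was 1 group. The 2 replicates are separate biological samples per the labels.

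The genes, related lists and motifs were chosen with earlier results of these data known. Genes named were the 9 heat shock genes, every annotated gene between the outermost 67B genes, and, per related list, up to 3 of highest signal and up to 2 without a summit. Fdx1 and pAbp were named after their values were seen. Of the 52 symbols 2 were updated through recorded synonyms. Alternatives were the other thresholded list, each replicate's own list, an IDR limit of 0.001, other windows, and peak overlap of 1 bp.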

Additional observations from a re-analysis of the deposited data

How the results depend on the processing

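Across 40 alternative values of the 6 counts, 35 stayed within 1.5 times the reported count. The number of heat shock genes with a summit was 7 with the other thresholded list, 6 with an IDR limit of 0.001 (without Hsp23), 6 with 500 bp upstream (without Hsp67Bc) and 7 with 2 kb upstream or by peak overlap. With one replicate left out it ranged from 5 to 6. Without replicate 2, meaning in replicate 1's own list, 3 peaks lay in the 67B cluster in place of 5 and 6 peaks at the 9 genes in place of 10, and without replicate 1 these were 5 and 8. Related chaperone genes with a summit numbered 6 without replicate 2, 13 without replicate 1 and 7 at an IDR limit of 0.001, against 17 reported. The cause of these differences was not tested. A heat shock element stood within 200 bp of 8 of the 10 summits, against 5 within 50 bp, since a wider window holds more matches. With peaks that share their replicate peaks with a stronger one left out, an alternative chosen after seeing the data, the counts were 7 genes, 8 peaks and 4 peaks in the cluster. Genes with a summit within 500 bp of a TSS then numbered 5 in place of 6. At the matched summits the replicates' own signals were below the series signal at each of the 7 genes with a peak. No paired analysis was possible because all samples belong to 1 group. Depth and the signal without the fusion protein are unknown, which limits what a missing peak at Hsp67Ba, Hsf or the Hsp70 copies shows.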
